A study of Mus musculus with 19 samples.

Results

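The 33 genes described here encode proteins of the presynaptic terminal and the axon of neurons, and were chosen by symbol: Snap25, Stx1a, Vamp1 and Vamp2 (membrane fusion), Syt1, Syt2, Syt4, Syt7, Cplx1 and Cplx2 (calcium sensing), Syp, Sv2a, Sv2b, Sv2c, Syn1, Syn2, Syn3 and Rab3a (the vesicle), Rims1, Bsn, Pclo and Unc13a (the active zone), Slc17a6, Slc17a7, Slc32a1, Gad1 and Gad2 (transmitter synthesis and loading), and Nefl, Nefm, Nefh, Rbfox3, Tubb3 and Sncb (axon and neuron identity). All 33 were found among the 39179 genes listed, of which 27448 had at least 1 count. They were measured by polyA RNA sequencing of cerebral microvessels, the capillaries and other small vessels of brain tissue, from male C57BL/6 mice bought at 7 weeks of age. The groups, by title, were Nic-free (exposure to an electronic cigarette without nicotine, 4 libraries), Nic (electronic cigarette with nicotine, 3 libraries), Room-air (room air, 4 libraries), smoke (smoke exposure, 4 libraries) and air (room air again, 4 libraries). By their titles alone, both e-cigarette groups were set against Room-air and smoke against air. The length of exposure, the way the vessels were isolated and any pooling of animals are not given in the labels. No label says that the libraries of a group came from separate animals, so every p-value covers the spread among the libraries sequenced, which may be technical.

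Neurotransmitter is stored in synaptic vesicles that dock at the active zone and fuse with the terminal's membrane when calcium enters. Fusion is driven by SNARE proteins that zip together across both membranes, complexins and synaptotagmins hold and trigger that step, and transporters fill the vesicle with glutamate or GABA. Vessel cells form no such terminals, and in brain tissue these transcripts are commonly read as markers of neurons.

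Neuronal genes such as these are kept silent outside the nervous system by REST (also called NRSF), a repressor that binds an element with a left and a right arm, and the members whose promoters carry an arm are shown for that reason. RefSeq promoter windows of GRCm38.p6, which run from 250 bases before to 50 bases after a gene's start, were matched for 25 of the 33 genes and searched on both strands. The 30 bases around each match are given 5′ to 3′ on the strand that carries the arms, with the arms, TTCAGCACC (left) and GGACAGC (right), in capitals.
Unc13a: cgcTTCAGCACCgggggcgcGGACAGCgcc
Syn1: cactgtcggaTTCAGCACCgcggtcagagc
Gad2: ggtagcaccctGGACAGCgcgttccggcag
Tubb3: gaaaaggcaggcGGACAGCaggctgcggag
The Unc13a stretch lies at chr8:71671724-71671753 (plus strand printed, gene on the minus strand). In the direction of the transcript its first arm, the right one, starts at base 8. The Syn1 stretch lies at chrX:20921131-20921160 (minus strand, as the gene), the Gad2 stretch at chr2:22622161-22622190 (plus strand, as the gene) and the Tubb3 stretch at chr8:123411553-123411582 (minus strand printed, gene on the plus strand). Among all 32851 windows the left arm stood in 0.371% and the right arm in 6.56%, and only Unc13a held both arms among the 25 genes matched. The 25 genes matched had 33 windows. The GC box GGGCGG, a common promoter element, stood in 20 of these windows, from 19 genes, and in 35.7% of all windows. The cAMP response element TGACGTCA stood in 1 of the 33, of Syn1, and in 1.79% of all windows. These matches are letters in a window and no measure of binding.

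Per length of exon, the genes spanned a wide range of levels in these vessel libraries. Levels are given as CPM, a gene's reads per 1000000 counted reads of its library, and here per kb of merged exons as the mean over the 19 libraries. Syp, which encodes synaptophysin of the vesicle membrane, was highest at 238 ± 49.6 CPM per kb (SD, n = 19). Slc17a7, the glutamate transporter of cortical vesicles (VGLUT1), came next at 178 ± 35.5, followed by the complexin genes Cplx2 at 136 ± 37.2 and Cplx1 at 129 ± 32.6. Syt1, the fast calcium sensor, stood at 125 ± 22.9, and Snap25, a SNARE of the terminal's membrane, at 116 ± 31. Vamp2, the main vesicle SNARE of the forebrain, had 112 ± 20.3. The levels of different genes were not tested against each other. The glutamate transporter of subcortical vesicles, Slc17a6 (VGLUT2), had 5.87 ± 2.47 CPM per kb, far below Slc17a7, and the GABA transporter Slc32a1 had 35.5 ± 7.74. The giant scaffolds Bsn (16 ± 1.94) and Pclo (7.72 ± 1.15) stood low on this scale. Sv2c (0.391 ± 0.104), a vesicle protein of basal nuclei, and Syn3 (0.355 ± 0.0733), a synapsin of low level, were lowest, with as few as 24 and 30 counts in a library. Syn3 shares 1733 exon bases with Timp3 on the opposite strand, which has 118637 counts over the libraries against 1587 for Syn3. With the strand setting of the counting not given in the sources used here, the level of Syn3 is uncertain. Nefl and Nefm share 1108 exon bases with each other on opposite strands, Unc13a shares 495 with Colgalt1 and Syp shares 875 with Gm14703, and these counts carry the same doubt to a smaller degree.

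**Figure D1:**
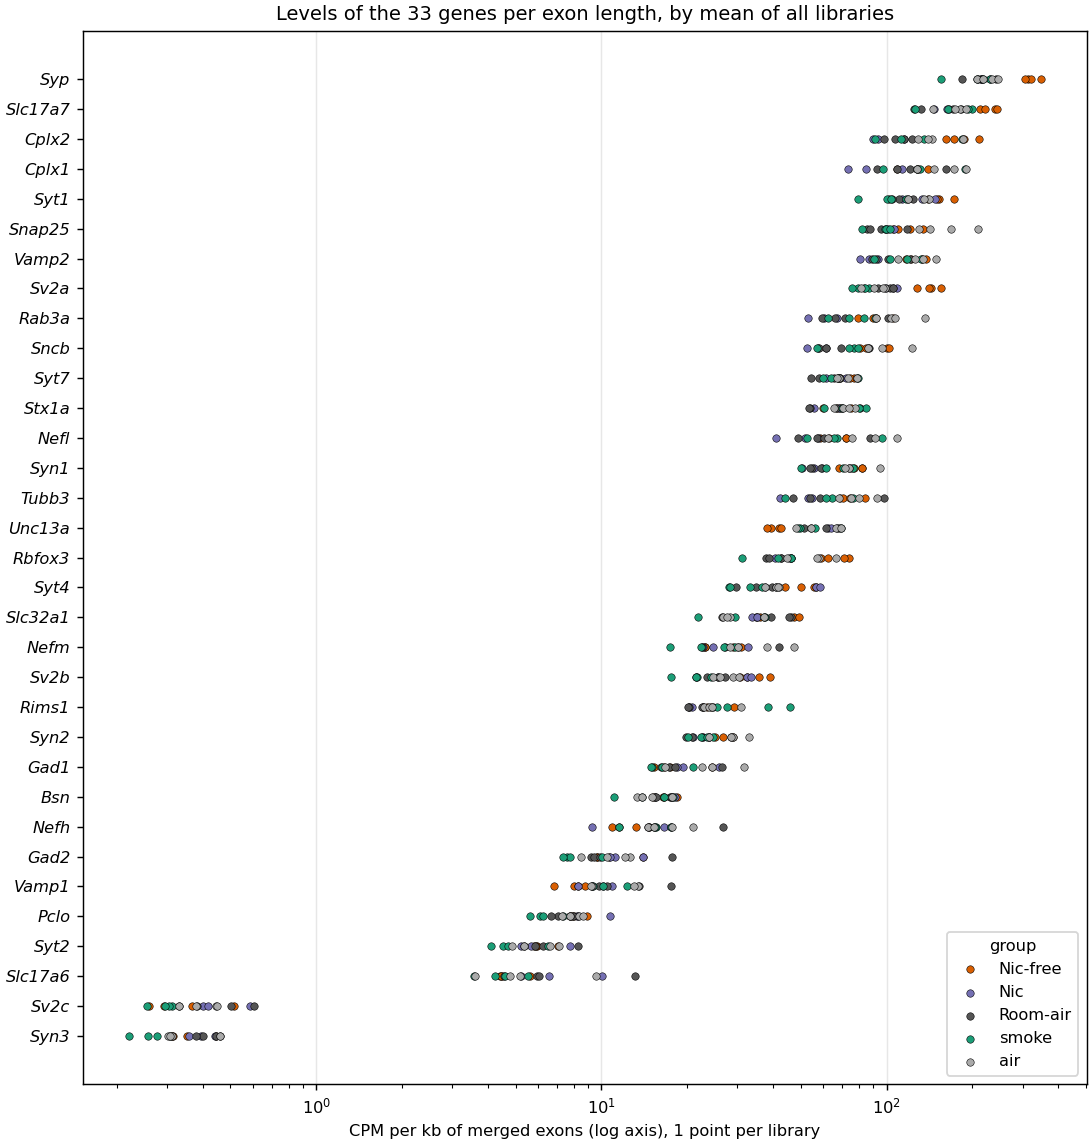
Level of each of the 33 genes in each library, in CPM per kb of merged exons on a log axis (1 point per library, coloured by group), with genes ordered by their mean over the 19 libraries. Syp stands highest at a mean of 238 and Syn3 lowest at 0.355, and Slc17a6 has the widest spread, 3.69-fold between its highest and lowest library.

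Every member was counted in every library, and they varied between libraries by modest factors. The highest library was 1.46 times the lowest for Syt7, a slow calcium sensor, and 3.69 times for Slc17a6. Total counts, in units of 1000000 reads, were 15.2 to 19.1 in Nic-free, 21.8 to 28.4 in Nic, 25.3 to 30.2 in Room-air, 7.94 to 12.6 in smoke and 9.76 to 13.5 in air libraries, and reads assigned to no gene were 38.9 to 45.2% in Nic-free, 33 to 38.4% in Nic, 28.7 to 33.4% in Room-air, 28.9 to 33.2% in smoke and 33.5 to 37.5% in air libraries. None of 20 endothelial markers was at 0. Their summed level was 2478 to 3781 CPM in Nic-free, 3638 to 6693 in Nic and 3549 to 4958 in Room-air libraries. It was 2977 to 4050 in smoke and 1667 to 3021 in air libraries. With no library of whole brain tissue to compare, these values cannot show enrichment for vessels. The 33 presynaptic and axonal genes summed to more than the 20 endothelial markers in every library, at 11230 to 12970 CPM in Nic-free, 9537 to 10120 in Nic, 8648 to 10246 in Room-air, 7628 to 10534 in smoke and 10383 to 12630 in air libraries. The lists differ in their number of genes, and the sums were not scaled to exon length. They therefore do not rank neuronal against endothelial RNA. Markers of other brain cells were present too: the 11 oligodendrocyte markers summed to 9629 to 15671 CPM in Nic and 23288 to 32453 in air libraries. Of 16 markers of hindbrain, brainstem and spinal neurons, 12 stayed under 1 CPM in every library, and 2 of these, Hoxc4 among them, were at 0.

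**Figure D2:**
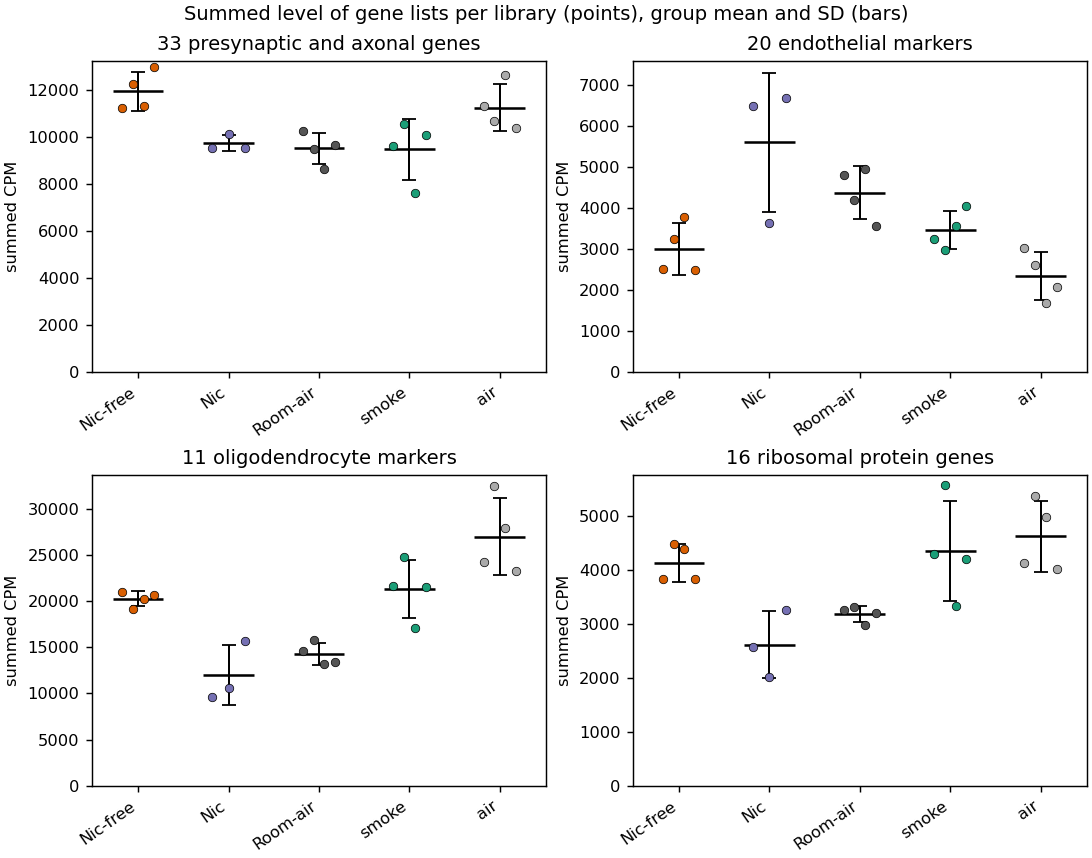
Summed CPM per library (points, with group mean and SD as bars) of the 33 presynaptic and axonal genes, 20 endothelial markers, 11 oligodendrocyte markers and 16 ribosomal protein genes. The 33 genes sum to 11230 to 12970 CPM in Nic-free and 8648 to 10246 in Room-air libraries, while endothelial markers sum to 2478 to 3781 CPM in Nic-free and 3549 to 4958 in Room-air libraries.

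The first comparison asks what nicotine-free vapour does. In Nic-free libraries 12 of the 33 genes rose and 2 fell against Room-air, where 11.3% of the 17235 genes tested rose and 10.4% fell (edgeR's quasi-likelihood test, Benjamini-Hochberg adjusted p under 0.05). Vesicle proteins, calcium sensors and neuron markers made up most of the rises, at 1.26- to 1.71-fold, while Unc13a and Vamp1 fell. The median log2 fold change was 0.24 over the 33 genes and 0.004 over all genes tested. For 8 genes all Nic-free libraries lay above all Room-air libraries and for 3 below, as for 11.2 and 15.6% of all genes tested. In these bulk libraries fewer cells of a type and less RNA per cell cannot be told apart.

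Of the 8 vesicle genes 4 rose and none fell. Syp (ENSMUSG00000031144, X:7638471-7653256) stood at 1628, 1672, 1592 and 1813 CPM in Nic-free libraries, against 1093, 1129, 955 and 1266 in Room-air libraries. The groups did not overlap, and Syp was 0.64 ± 0.10 higher on the log2 scale (SE, adjusted p = 0.00111). Sv2a, the vesicle protein to which the antiepileptic drug levetiracetam binds, had 666, 653, 592 and 719.6 CPM in Nic-free and 476, 431, 387 and 488 in Room-air libraries, with a log2 fold change of 0.61 ± 0.10 (adjusted p = 0.00119). Every Nic-free library again stood above every Room-air library. Its relative Sv2b rose by 0.54 ± 0.11 (adjusted p = 0.00469) without overlap, and Syn1, a synapsin that tethers vesicles to actin, by 0.40 ± 0.11 (adjusted p = 0.0201) with overlap. Syn2 (0.24, adjusted p = 0.135) and Rab3a, the vesicle GTPase (0.35, adjusted p = 0.102), did not pass. Sv2c and Syn3, the pair of lowest level, had −0.31 (adjusted p = 0.376) and −0.19 (adjusted p = 0.404).

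Among 6 calcium sensors and complexins 3 rose. Cplx2 (ENSMUSG00000025867, 13:54371349-54383917), the complexin of cortical excitatory neurons, had 799, 1039, 853 and 919.5 CPM in Nic-free libraries and 605, 484, 568 and 526 in Room-air libraries. This was the largest log2 fold change of the 33, at 0.78 ± 0.11 (adjusted p = 0.000748), with no overlap. Syt1 rose by 0.53 ± 0.11 (adjusted p = 0.00443), and Syt4, a synaptotagmin of dense-core vesicles, by 0.56 ± 0.14 (adjusted p = 0.0142), both without overlap. Cplx1, the other complexin, was at 0.11 (adjusted p = 0.66) and Syt7 at 0.27 (adjusted p = 0.0852). Syt2, the calcium sensor of hindbrain and fast interneuron synapses, had 45.3, 44.9, 44.2 and 53.7 CPM in Nic-free and 63.5, 44.6, 40.9 and 47.8 in Room-air libraries, and its log2 fold change was −0.02 ± 0.15 (adjusted p = 0.947). The Syt2 ranges overlapped, with the highest library in the Room-air set.

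The 4 SNARE genes went different ways. Snap25 (ENSMUSG00000027273, 2:136713453-136782428) had 742, 823, 714 and 913 CPM in Nic-free and 804, 580.1, 652 and 595 in Room-air libraries, with a log2 fold change of 0.33 ± 0.11 (adjusted p = 0.0475) and overlapping groups. Vamp2 rose by 0.39 ± 0.11 (adjusted p = 0.0183), also with overlap. Vamp1, the vesicle SNARE of motor and brainstem terminals, had 69.5, 81.3, 84.3 and 89.1 CPM in Nic-free and 179, 138, 106 and 99.6 in Room-air libraries, and fell by 0.64 ± 0.16 on the log2 scale (adjusted p = 0.0145). No Nic-free library reached the lowest Room-air library for Vamp1. Stx1a, the syntaxin of the terminal's membrane, was at 0.13 (adjusted p = 0.507).

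At the active zone Unc13a (ENSMUSG00000034799, 8:71624417-71671757), which encodes Munc13-1, the factor that primes vesicles for release, went against the vesicle genes. It had 495, 481, 531 and 539 CPM in Nic-free libraries and 650.3, 863, 685 and 772 in Room-air libraries. Unc13a was 0.49 ± 0.10 lower (log2 fold change −0.49, adjusted p = 0.00442), without overlap. Bsn, the scaffold bassoon, had 241, 293, 263 and 264 CPM in Nic-free and 277, 280.0, 246 and 247 in Room-air libraries, with overlapping groups and a log2 fold change of 0.07 ± 0.09 (adjusted p = 0.655). The scaffolds Pclo (0.20, adjusted p = 0.178) and Rims1 (0.24, adjusted p = 0.101) did not pass either.

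Among the 5 genes of transmitter synthesis and loading only Slc17a7 passed. It had 1150, 1296, 1194 and 1315 CPM in Nic-free and 710.3, 922, 675 and 983 in Room-air libraries, and rose by 0.64 ± 0.13 (adjusted p = 0.0035) without overlap. The other vesicular glutamate transporter, Slc17a6, had 23.9, 24.3, 24 and 30.3 CPM in Nic-free and 71.1, 24.6, 32.1 and 32.7 in Room-air libraries. Its log2 fold change of −0.60 ± 0.32 did not pass (adjusted p = 0.215), and the first Room-air library stood apart at more than double the others. That library was also the highest Room-air library for Gad2 (104 CPM against 54.2 to 58.2), Nefh and Vamp1. Without it, 15 genes rose and 2 fell, among them all 14 called with it. The share of all genes called without that library was not computed. Gad1, the main GABA-synthesising enzyme, had 127, 117, 133 and 187 CPM in Nic-free and 203, 132, 124 and 138 in Room-air libraries, overlapping, with a log2 fold change of −0.03 ± 0.18 (adjusted p = 0.912). Gad2 (−0.03, adjusted p = 0.943) and Slc32a1 (0.14, adjusted p = 0.561), of the same GABA pathway, did not pass.

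Of 6 axonal and neuron identity genes 2 rose and none fell. Rbfox3 (ENSMUSG00000025576, 11:118489762-118911597), which encodes the neuronal nuclear antigen NeuN, had 343, 429, 364 and 412 CPM in Nic-free and 219.6, 249, 226 and 248 in Room-air libraries. It had the lowest adjusted p of the 33 (0.000326), with a log2 fold change of 0.76 ± 0.10 and no overlap. Sncb, beta-synuclein of the terminal, rose by 0.47 ± 0.12 (adjusted p = 0.0167), and Tubb3, neuronal tubulin, was at 0.26 (adjusted p = 0.353). The heavy neurofilament Nefh had 43.5, 53, 45.9 and 58.7 CPM in Nic-free and 107, 61, 70.3 and 58.9 in Room-air libraries. Its groups barely separated, and its log2 fold change of −0.51 ± 0.21 missed the threshold (adjusted p = 0.105; DESeq2 adjusted p = 0.0459). The light and medium chains Nefl and Nefm were at 0.11 (adjusted p = 0.647) and −0.15 (adjusted p = 0.593).

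Genes outside the 33 were counted on lists, where 11.3% of all genes tested rose and 10.4% fell. Of 52 other presynaptic genes tested 17 rose and 3 fell, with Syt11 at a log2 fold change of 0.98 and Syt5 at 0.62 among the rises. Rimbp2, a binding partner of RIM proteins at the active zone, fell by 0.70. Of 23 other axonal genes 10 rose and 1 fell, including the microtubule regulators Stmn3 (0.80) and Mapt (0.46) and the sodium channel Scn2a (0.93). Of 16 other neuron markers 9 rose and none fell, such as the RNA-binding proteins Celf4 (1.07) and Elavl3 (0.80). Of 12 forebrain markers 6 rose and none fell, with the cortical factors Bcl11b at 0.78 and Neurod2 at 0.73, and a median log2 fold change of 0.29. Of 8 thalamic and midbrain markers tested 1 rose (Rorb, 0.43) and 1 fell (Prkcd, −0.75), with a median of −0.69. Among 7 cerebellar markers 1 rose (Car8, 1.00) and 1 fell (Zic1, −0.41), with a median of −0.42. No brain region was tested against another. Of 8 striatal and 8 interneuron markers 2 rose on each list and none fell, with medians of 0.41 and 0.15.

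Other cell markers moved in the same libraries. In Nic-free against Room-air, 7 of 20 endothelial markers fell, 6 of 11 oligodendrocyte and 6 of 11 astrocyte markers rose, 6 of 12 microglia and macrophage markers rose and 1 fell, and 10 of 16 ribosomal protein genes rose. Oligodendrocyte markers summed to 19132 to 21028 CPM in Nic-free and 13221 to 15795 in Room-air libraries, and ribosomal protein genes to 3827 to 4485 CPM in Nic-free and 2979 to 3309 in Room-air libraries. Choroid plexus markers summed to 885 to 18521 CPM in Nic-free and 17703 to 24945 in Room-air libraries. The part of these in the result for the 33 genes was not tested.

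The smaller rises of this comparison depended on single libraries. Snap25 no longer passed without Room-air 2, 3 or 4 or Nic-free 1, 2 or 4 (adjusted p 0.0557 to 0.151). Vamp2 (0.052 to 0.0655) and Syn1 (0.0588 to 0.0675) were lost without Room-air 2 or 3 or Nic-free 2 or 4, and Sncb (0.0513 to 0.0604) without Room-air 3 or Nic-free 2 or 4. With the air set as control only Syp (0.51, adjusted p = 0.0292), Sv2a (0.63, 0.00186) and Unc13a (−0.55, 0.0173) of the 14 genes passed, and Snap25 stood at −0.47 (0.0673), the other direction.

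**Figure D3:**
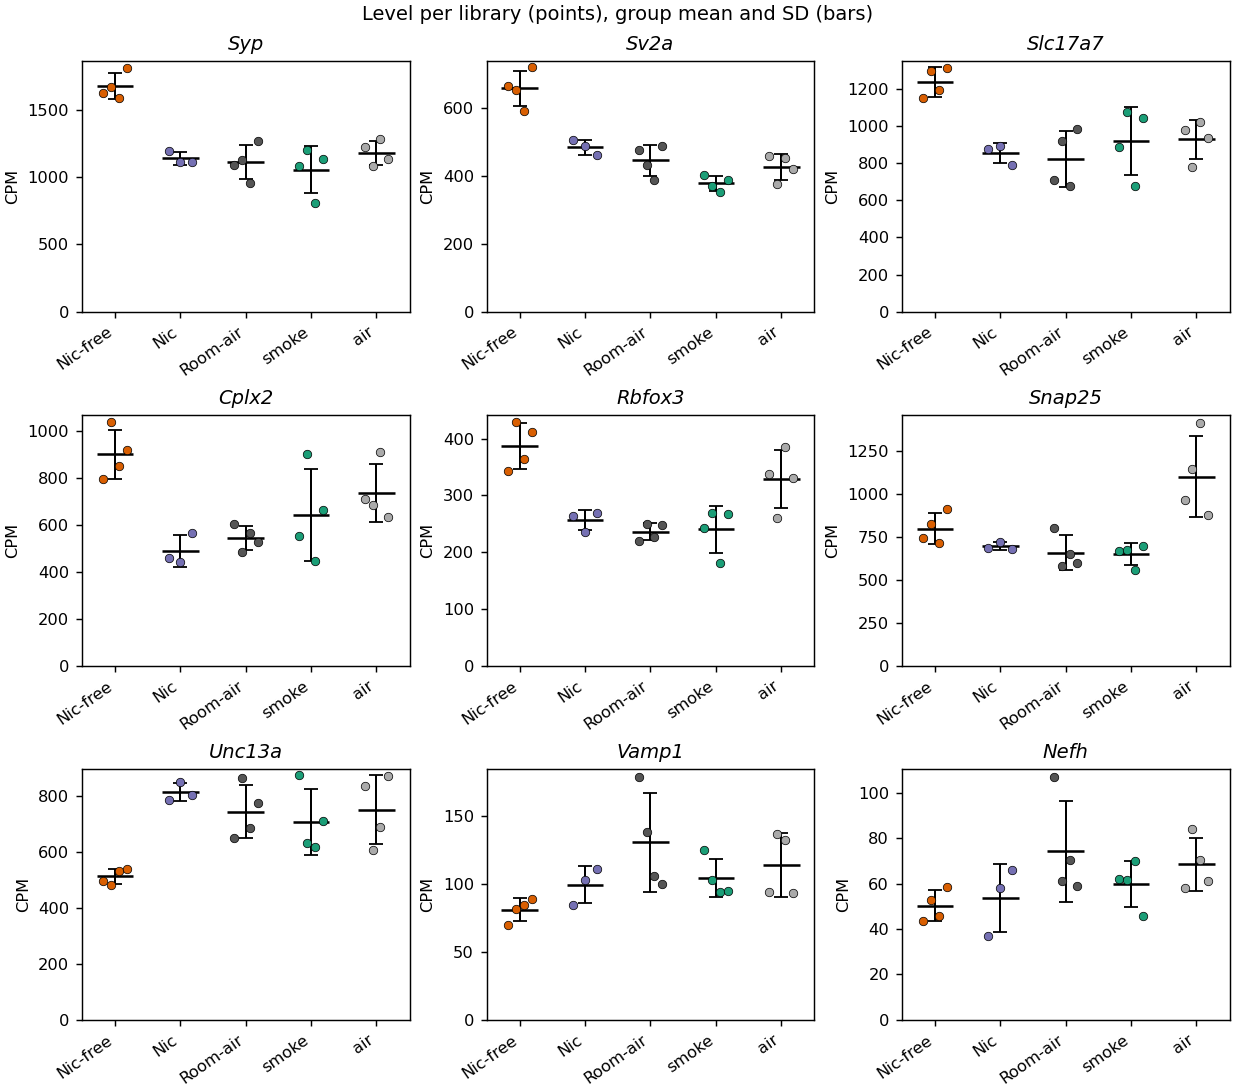
CPM of 9 of the genes in each library (points), with group mean and SD (bars), for Nic-free, Nic, Room-air, smoke and air. Syp, Sv2a and Slc17a7 are higher and Unc13a is lower in the 4 Nic-free libraries than in all 15 others, while Snap25 is highest in the air set.

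The 4 genes with Nic-free libraries apart from every other library, a feature looked for after the values were seen, were Syp, Sv2a, Slc17a7 and Unc13a. Syp had 1592 to 1813 CPM in Nic-free libraries and 808 to 1283 in the 15 others, and Sv2a 592 to 719.6 in Nic-free libraries and 351 to 505 in the others. Slc17a7 had 1150 to 1315 CPM in Nic-free libraries against 675 to 1077 elsewhere, and Unc13a 481 to 539 in Nic-free libraries against 607 to 872 elsewhere. Of the 16557 genes tested over all libraries, 1.12% had every Nic-free library above all others and 0.695% below.

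The second comparison adds nicotine to the vapour. None of the 33 genes passed in Nic against Room-air, where 1.22% of genes tested rose and 2.67% fell by edgeR. At an unadjusted p under 0.05, 3 members were higher and 2 lower, where 12.7% of all genes were higher and 11.7% lower, and DESeq2 called 1 member higher, Syt4, where it called 3.87% of all genes higher. The median log2 fold change was −0.05 over the 33 genes and 0.028 over all genes. These 3 Nic and 4 Room-air libraries share the Room-air set with the comparison above.

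Syt4 had the lowest adjusted p. It had 221, 228 and 146 CPM in Nic libraries and 154, 115, 136 and 159 in Room-air libraries, with a log2 fold change of 0.47 ± 0.15 (adjusted p = 0.0882, 0.0483 by DESeq2). The third Nic library lay within the Room-air range and the other two above it. Pclo, the scaffold piccolo, had 185, 241 and 186 CPM in Nic and 179, 175, 158 and 149 in Room-air libraries. It was the only member whose groups did not overlap (8.19% of all genes did so upward and 8.8% downward), at 0.28 ± 0.11 (adjusted p = 0.13). Cplx1 was at −0.44 ± 0.18 (adjusted p = 0.15) and Sv2b at 0.29 ± 0.12 (adjusted p = 0.155). Without Nic 3, Syt4 (0.64, adjusted p = 0.00733) and Sv2b (0.40, 0.0345) were called higher and Cplx1 (−0.64, 0.0271) lower.

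The libraries of both groups overlapped for Syp and Unc13a, which had changed in Nic-free libraries. Syp had 1197, 1113 and 1114 CPM in Nic libraries, inside the 955 to 1266 of Room-air, and a log2 fold change of 0.01 (adjusted p = 0.953). Unc13a had 785, 847 and 803 CPM in Nic libraries, inside the 650.3 to 863 of Room-air, at 0.10 (adjusted p = 0.595). Bsn had 246, 283 and 289 CPM in Nic libraries (0.04, adjusted p = 0.862) and Gad1 148, 198 and 140.4 (0.10, adjusted p = 0.799), both overlapping Room-air. Slc17a6 had 35.4, 54.2 and 28.2 CPM in Nic libraries (−0.05, adjusted p = 0.95), Syt2 40, 59.1 and 43.2 (−0.07, adjusted p = 0.818), and Nefh 36.9, 58.3 and 66 (−0.48 ± 0.23, adjusted p = 0.221). None of the 52 other presynaptic, 23 other axonal or 16 other neuron genes tested passed by edgeR in this comparison. Nor did any of 20 endothelial, 11 oligodendrocyte or 16 ribosomal protein genes, while 1 of 11 astrocyte markers fell. Among 8 striatal markers 1 fell, Ppp1r1b (−0.89 ± 0.15, adjusted p = 0.0197). Abcc9 (0.59, adjusted p = 0.0482) rose as 1 of 11 pericyte and smooth muscle markers, and Slc4a1 (1.21, 0.0443) as 1 of 7 red cell markers. Choroid plexus and ependymal markers summed to 2128 to 7190 CPM in Nic and 17703 to 24945 in Room-air libraries, though none of the 12 passed. The part of these in the result was not tested. With the air set as control 11 of the 33 were lower in Nic and none higher, so the count depended on the control set. The share of all genes called with that control was not computed, so the 11 have no background beside them.

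**Figure D4:**
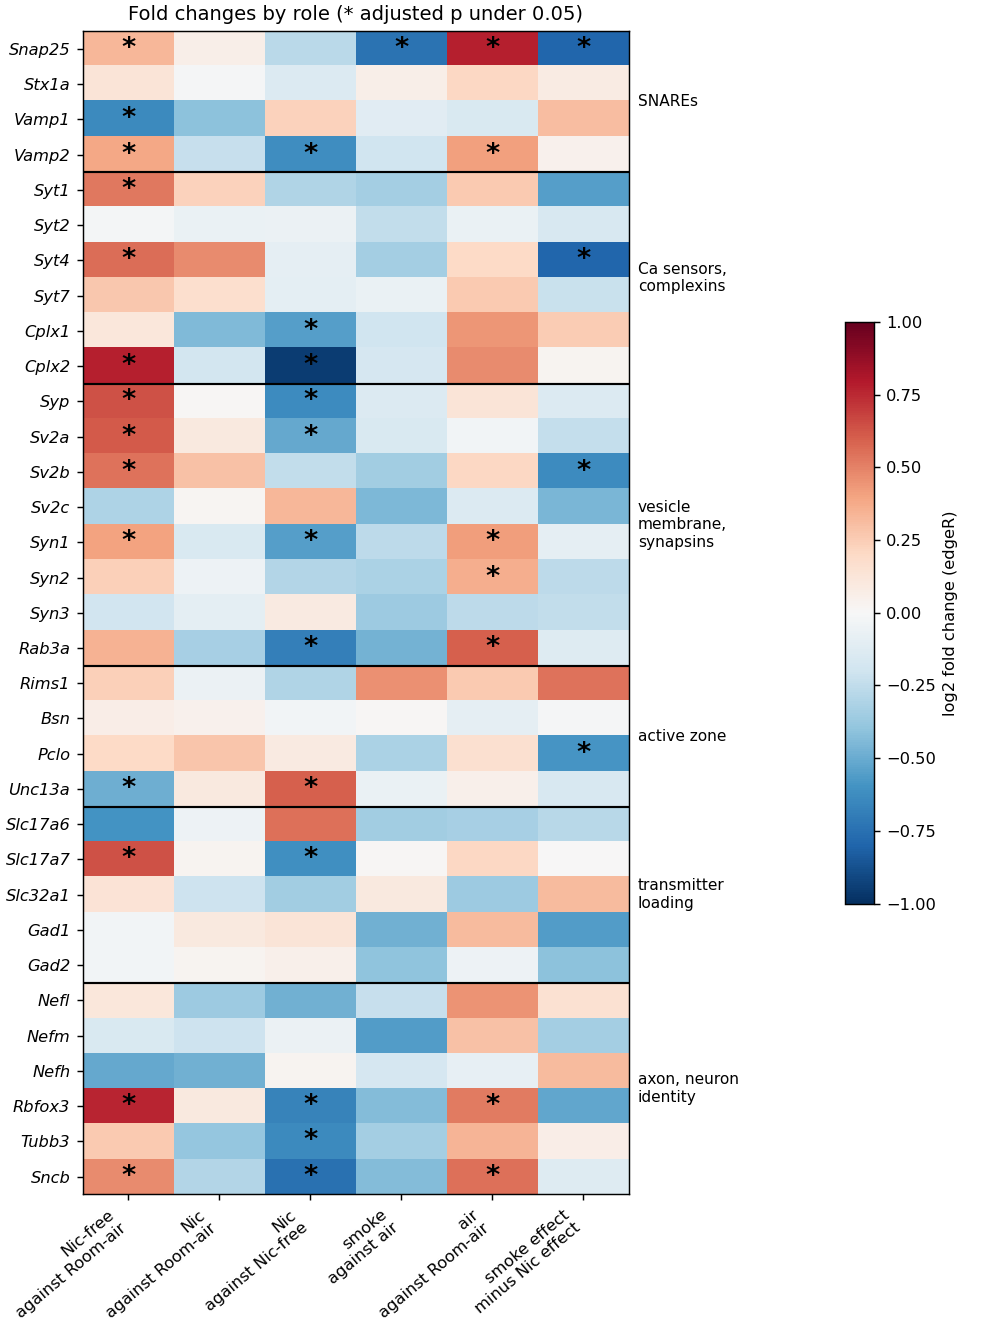
Log2 fold change (edgeR) of the 33 genes, by role, in 6 comparisons, with an asterisk for an adjusted p under 0.05. Nic-free against Room-air is mostly red with Unc13a and Vamp1 in blue, Nic against Room-air has no asterisk, and Nic against Nic-free has 11 asterisks in blue and 1, Unc13a, in red.

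The third comparison sets the vapours against each other. In Nic libraries 11 of the 33 genes were lower than in Nic-free libraries and 1, Unc13a, was higher, where 12.4% of the 17235 genes tested fell and 12.4% rose. The median log2 fold change was −0.27 over the 33 genes and 0.021 over all genes. For 13 genes all Nic libraries lay below all Nic-free libraries and for 1 above, as for 13.2 and 20.7% of all genes tested. The comparison shares the Nic-free libraries with the first comparison, so its direction is not a separate observation of the same genes.

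Cplx2 fell furthest, with 459, 443 and 568 CPM in Nic libraries against 799, 1039, 853 and 919.5 in Nic-free libraries. No Nic library came near the Nic-free range, and the log2 fold change was −0.95 ± 0.13 (adjusted p = 0.000305), or 0.52-fold. Rbfox3 had 264, 236 and 269 CPM in Nic and 343, 429, 364 and 412 in Nic-free libraries, and fell by 0.67 ± 0.11 on the log2 scale (adjusted p = 0.000772), again without overlap. Cplx1 was lower too (−0.55 ± 0.18, adjusted p = 0.037), with 161, 186 and 247 CPM in Nic and 239, 283, 279 and 307 in Nic-free libraries, which overlap.

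Of the 8 vesicle genes 4 fell: Syp (−0.63 ± 0.11, adjusted p = 0.00142), Sv2a (−0.51 ± 0.11, 0.00352), Syn1 (−0.55 ± 0.12, 0.00475) and Rab3a (−0.68 ± 0.16, 0.00736), each without overlap. Vamp2, among the SNAREs, fell by 0.62 ± 0.12 (adjusted p = 0.00187). Slc17a7 fell by 0.61 ± 0.14 (adjusted p = 0.00566), while Slc17a6, at 0.55 ± 0.35, did not pass (adjusted p = 0.276). Sncb (−0.75 ± 0.14, adjusted p = 0.00166) and Tubb3 (−0.64 ± 0.21, 0.0376) fell among the neuron identity genes, and Nefl, at −0.48 ± 0.17, did not pass (adjusted p = 0.0601). Unc13a had 785, 847 and 803 CPM in Nic and 495, 481, 531 and 539 in Nic-free libraries, and rose by 0.60 ± 0.11 (adjusted p = 0.00166). For Unc13a the ranges lay far apart.

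On the other lists 14 of 52 presynaptic genes fell and 2 rose, with Cplx3, a complexin of retina and cortex, at −0.98 and Rimbp2 at 0.67. Of 23 axonal genes 10 fell and 1 rose, including Stmn3 (−0.93) and Stmn2 (−0.80), while Dst, a cytoskeletal linker, rose (0.39). Other neuron markers fell in 4 of 16, among them Celf4 (−0.82) and Elavl3 (−0.62). In the same libraries 13 of 20 endothelial markers rose, 7 of 11 oligodendrocyte and 8 of 11 astrocyte markers fell, 3 of 12 microglia and macrophage markers fell and 1 rose, and 15 of 16 ribosomal protein genes fell, with sums of 2022 to 3259 CPM in Nic and 3827 to 4485 in Nic-free libraries. The part of these in the result was not tested.

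Rab3a was lost without Nic 1 (adjusted p = 0.0513). Cplx1 was lost without Nic-free 2, 3 or 4 or Nic 1 or 2 (0.066 to 0.173), and Tubb3 without Nic-free 2, 3 or 4 or any Nic library (0.0625 to 0.155).

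Fold changes of the 33 genes went with exon length in each comparison except smoke against air, that of the room air sets included. In Nic against Nic-free, Spearman's rho between log2 fold change and merged exon length was 0.69 over the 33 genes and 0.26 over all genes tested. The short Sncb (2145 bases) fell and the long Unc13a (12623 bases) rose. In Nic against Room-air rho was 0.56 over the 33 and 0.16 over all genes, and in Nic-free against Room-air −0.34 over the 33 and −0.15 over all genes. In air against Room-air it was −0.44 over the 33 and −0.16 over all genes, while in smoke against air it was −0.04 over the 33 and 0.09 over all genes. For the smoke effect minus the Nic effect it was −0.45 over the 33 and −0.07 over all genes. There rho with GC content of the longest transcript was 0.55 over the 33 and 0.41 over all genes. In smoke against air rho with GC content was 0.32 over the 33 and 0.28 over all genes. The same values were −0.38 and −0.36 in Nic against Room-air, and −0.39 and −0.22 in Nic against Nic-free. They were 0.07 and −0.03 in Nic-free against Room-air, and 0.18 and −0.07 in air against Room-air. These are correlations across genes of the same libraries, which are not independent replicates. The longest, Pclo (22457 bases) and Bsn (15938 bases), had log2 fold changes of 0.09 and −0.03 in Nic against Nic-free, above the median of −0.27 over the 33 genes. The part of exon length or GC content in the fold changes was not tested.

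**Figure D5:**
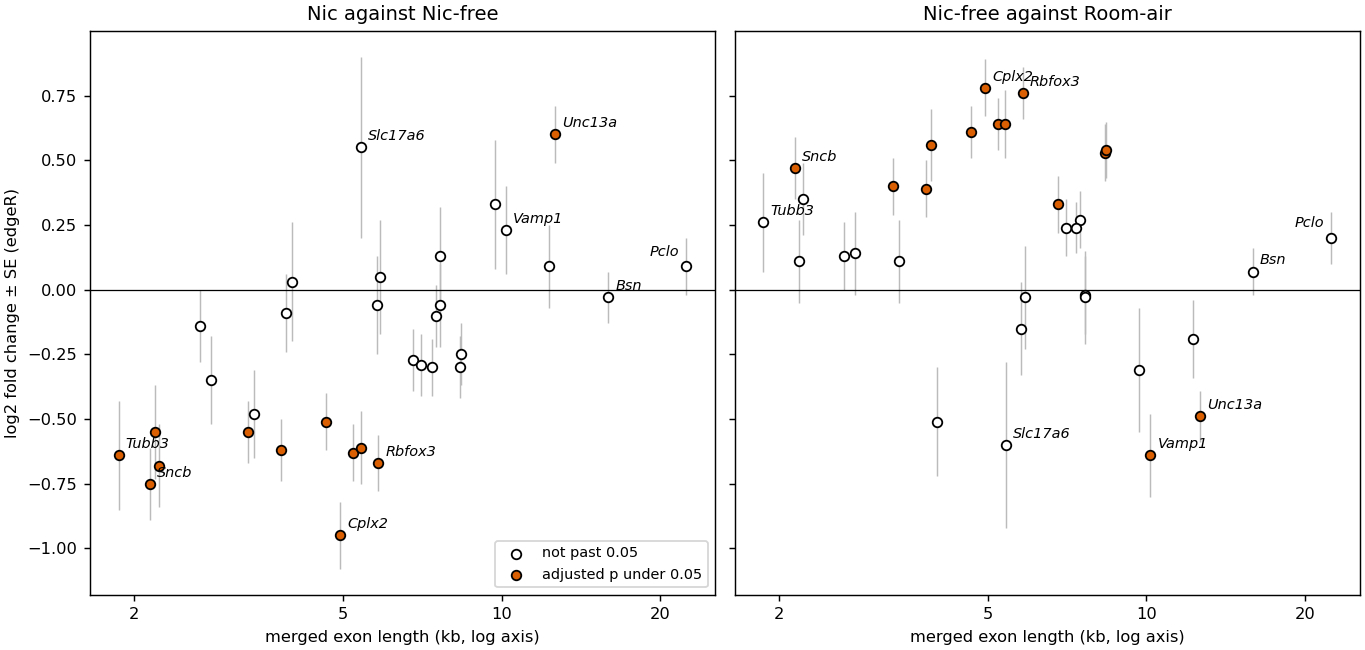
Log2 fold change ± SE (edgeR) against merged exon length in kb (log axis) for the 33 genes, in Nic against Nic-free (left) and Nic-free against Room-air (right), with filled points for an adjusted p under 0.05. Spearman's rho is 0.69 on the left and −0.34 on the right, and Unc13a, 12623 bases long, is high on the left and low on the right.

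Smoke was compared with the air set, taken as its control by title alone. Of the 33 genes 1 fell, Snap25, and none rose, where 0.519% of the 15232 genes tested fell and 1.08% rose. At an unadjusted p under 0.05, 13 members were lower and 1 higher, where 8.09% of all genes were lower and 11.2% higher. The median log2 fold change was −0.26 over the 33 genes, 28 of them negative, and 0.019 over all genes. For 7 members every smoke library lay below every air library, as for 5.84% of all genes, and for none above, as for 5.48%. DESeq2 called 2 members lower, Snap25 and Syt4, where it called 2.81% of all genes lower.

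Snap25 had 669, 674, 558 and 697 CPM in smoke libraries against 964, 1144, 1416 and 879.6 in air libraries. The groups were well apart, at a log2 fold change of −0.74 ± 0.17 (adjusted p = 0.0495). That p sat at the threshold: leaving out any single library of either group gave 0.0553 to 0.144, and against the Room-air set, with 804, 580.1, 652 and 595 CPM, the log2 fold change of smoke was 0.03 (adjusted p = 0.911). Syt4 had 142, 109, 109.6 and 129.6 CPM in smoke and 163, 159, 162 and 146 in air libraries, without overlap, at −0.34 ± 0.10 (adjusted p = 0.0942). Among the other members whose groups did not overlap were Rab3a (−0.47, adjusted p = 0.133) and Sncb (−0.43, 0.156), and Syt1 (−0.34, 0.231), Sv2b (−0.35, 0.139) and Sv2c (−0.45, 0.216) completed them. The largest changes that did not pass were Nefm, at −0.56 ± 0.21 (adjusted p = 0.173), and Gad1, at −0.48 ± 0.17 (adjusted p = 0.158), both with overlap.

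The smoke and air ranges overlapped for the other members given here in every library. Syp had 1082, 1199, 808 and 1138 CPM in smoke and 1222, 1082, 1283 and 1135 in air libraries (−0.14 ± 0.15, adjusted p = 0.678), and Bsn 221, 285, 177 and 264 in smoke and 240.1, 213, 282 and 221 in air libraries (0.01, adjusted p = 0.983). Gad1 had 160.1, 115, 125 and 114 CPM in smoke and 242, 187, 172 and 128 in air libraries, and Nefh 62.1, 61.7, 69.9 and 45.9 in smoke and 58.2, 84, 70.6 and 61.2 in air libraries (−0.17, adjusted p = 0.561). Rims1, an organiser of the active zone, had the highest log2 fold change of the 33, with 203, 339, 188 and 283 CPM in smoke and 169, 175, 227 and 179.7 in air libraries, and it did not pass (0.46 ± 0.21, adjusted p = 0.255). Slc17a6 had 29.8, 22.8, 24.8 and 19.3 CPM in smoke and 28, 51.6, 25.9 and 19.5 in air libraries (−0.35, adjusted p = 0.542), and Syt2 49.7, 34.4, 31.4 and 35.9 in smoke and 40.9, 54.1, 50.5 and 37.1 in air libraries (−0.25, adjusted p = 0.413).

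The other lists were counted too, where 0.519% of all genes tested fell and 1.08% rose. Cadps, a priming factor of dense-core vesicles (−0.42), and Sh3gl2, endophilin of vesicle recycling (−0.63), were the 2 of 52 presynaptic genes that fell, and the sodium channel Scn1a (−0.42) the 1 of 23 axonal genes. Other neuron markers fell in 4 of 16, among them Elavl4 (−0.75) and Elavl2 (−0.58). Of 20 endothelial markers 4 rose, and their sum was 2977 to 4050 CPM in smoke and 1667 to 3021 in air libraries. The part of this in the result was not tested.

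The room air sets also differed from each other in some of these genes. In air against Room-air libraries 7 of the 33 rose and none fell, where 10.7% of the 16557 genes tested rose and 12% fell, with a median log2 fold change of 0.21 over the 33 genes and −0.003 over all genes. The sets did not overlap upward for 3 genes and downward for none, as for 9.9 and 16.5% of all genes. Snap25, with the air and Room-air values given above, did not overlap and was 0.78 ± 0.14 higher (adjusted p = 0.00101). Rbfox3 had 338, 261, 386 and 331 CPM in air and 219.6, 249, 226 and 248 in Room-air libraries, without overlap (0.52 ± 0.14, adjusted p = 0.0101). Sncb (0.55 ± 0.15, adjusted p = 0.0121), Rab3a (0.60 ± 0.16, 0.0137), Syn2 (0.36 ± 0.12, 0.0332), Vamp2 (0.41 ± 0.14, 0.0351) and Syn1 (0.42 ± 0.14, 0.0373) also passed, with overlap. The largest changes that did not pass were Cplx2 at 0.47 ± 0.18 (adjusted p = 0.0681) and Nefl at 0.45 ± 0.21 (0.13). Unc13a (0.05, adjusted p = 0.792), Syp (0.13, 0.49) and Sv2a (−0.03, 0.864) did not pass.

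On the other lists 12 of 52 presynaptic genes rose and 2 fell in air against Room-air, with Rimbp2 at −0.78, and 9 of 12 forebrain markers rose. In the same libraries 15 of 20 endothelial markers fell, 6 of 11 oligodendrocyte markers rose and 12 of 16 ribosomal protein genes rose. Both sets carry the label of room air, and the part of these markers in the result was not tested. Sncb (adjusted p = 0.0616) and Rab3a (0.0621) were lost without air 3, and Syn1, Syn2 and Vamp2 (0.0562 to 0.157) without Room-air 2, 3 or 4 or air 2 or 3, so that 2 genes passed without air 3. Without Room-air 3 the GABA transporter Slc32a1 was called lower.

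The smoke effect and the nicotine vapour effect were then set against each other, each relative to the room air set matched to it by title. By edgeR's adjusted p, 4 of the 33 genes passed with a negative difference and none with a positive one, where 2.8% of the 16557 genes tested were lower and 2.78% higher, and the median log2 difference was −0.16 over the 33 genes, 23 of them negative, and 0.021 over all genes. The 4 were Syt4 (−0.79 ± 0.19, adjusted p = 0.0271), Pclo (−0.59 ± 0.15, 0.0339), Snap25 (−0.79 ± 0.21, 0.037) and Sv2b (−0.63 ± 0.17, 0.0402). Pclo had 137, 140.2, 126 and 165 CPM in smoke and 188, 174, 194 and 163 in air libraries, which overlap. For Syt4, Pclo and Sv2b the log2 fold change was negative in smoke against air and positive in Nic against Room-air, and for Snap25 it was −0.74 in smoke and 0.06 in Nic. The largest differences that did not pass were Gad1 (−0.56 ± 0.28, adjusted p = 0.209) and Syt1 (−0.55 ± 0.18, 0.0747). Since the room air sets differ from each other, the difference of effects carries any part of that difference not shared by the exposed groups.

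These calls turned on single libraries. None of the 33 was called without Room-air 2, Nic 1, Nic 2 or air 1. The count was 1 without air 2, air 3, smoke 1 or smoke 3, and 2 without Room-air 4. Among 52 other presynaptic genes 5 were lower, with Cadps at −0.74, Ppfia2, a liprin scaffold, at −0.67 and Nrxn3 at −0.91. Of 23 other axonal genes 4 were lower, such as Scn1a (−0.82) and Scn2a (−0.78), and 2 were higher, among them the kinesin Kif5a (1.43). Other neuron markers were lower in 5 of 16, including Elavl4 (−1.05).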

How the data were processed

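The authors deposited raw counts per Ensembl gene for each library, made with STAR and HTSeq on the build mm10, per the submitters' processing notes. Tool versions and the strand setting are not given in the sources used here. The libraries are single-end and strand-specific, per the labels' protocols. The 5 summary lines of each file name no gene and stayed out of totals and tests, and reads with no feature are given in the report. Names and positions (GRCm38) were found for 37607 of 39179 genes.

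CPM were computed from those deposited counts over all genes. Tests used R 4.3.3 and edgeR 4.0.16: TMM normalisation, filterByExpr on the groups fitted, robust glmQLFit and glmQLFTest, with two-sided p-values adjusted by Benjamini and Hochberg over all genes tested (Benjamini-Hochberg, threshold 0.05). Nic-free, Nic and Room-air shared 1 fit, smoke and air another. A fit of all 19 libraries gave air against Room-air and the difference of effects. DESeq2 1.42.0 was an alternative, beside other scalings, no filter, a replicate block, the other air set as control and each library left out. The procedure was tested on simulated data. No libraries were duplicates: the largest share of genes over 20 counts with equal counts in 2 libraries was 1.01%. Full statistics per comparison were given for the members with the lowest adjusted p and the largest changes that did not pass, and further members were added after their values were seen. The members, the other lists and this rule were chosen with earlier results of these data known. Values without molecular identifiers cover counted reads, not molecules. Some genes of the lists are counted but not reported here by name.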

Additional observations from a re-analysis of the deposited data

Results flagged for a closer look

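Of 132 gene-by-group sets of 4 libraries, 7 held a library whose gap to its nearest neighbour, as a share of the group's range, was above Dixon's 95% critical value, where chance flags about 1 in 20 groups. The Nic group has 3 libraries and was not examined in this way. In Nic-free, library 4 was the highest for Slc17a6 (gap 0.939 of the range) and for Syt2 (0.886). In Room-air, library 1 was the highest for Gad2 (0.921), and in smoke library 1 was the highest for Gad2 (0.858). In the air set, library 2 was the highest for Syn3 (0.923), library 3 for Syn1 (0.891) and library 1 for Slc32a1 (0.849).

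The smoke effect and the nicotine vapour effect differed in 4 genes by edgeR: Snap25 (log2 difference −0.79), Syt4 (−0.79), Sv2b (−0.63) and Pclo (−0.59). The difference rests on both room air sets, and the calls were lost without single libraries as given in the report.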

How the results depend on the processing

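When Nic-free was set against the air libraries instead, 2 genes rose and 1 fell in Nic-free (12 and 2 with Room-air), and Sncb (−0.09), Vamp2 (−0.03), Syn1 (−0.03) and Snap25 (−0.47) changed sign. In Nic 11 genes were lower with that control and none with Room-air. With Room-air as control of smoke, 1 gene was higher (Rims1), 1 lower (Syn3) and Snap25 stood at 0.03. For these exchanged controls the share of all genes called was not computed. Nor was it computed for the left-out libraries, the replicate block or the single fit given below. In smoke against air 0 genes were lower with DESeq2's size factors and 2 by DESeq2, and in Nic against Room-air DESeq2 called 1 higher. The cause was not tested. Leaving out single libraries gave 0 to 2 genes higher and 0 to 1 lower in Nic against Room-air, 0 lower in smoke against air each time, 2 to 9 higher and 0 to 1 lower in air against Room-air, 0 to 5 lower for the difference of effects, 8 to 15 higher in Nic-free against Room-air and 8 to 11 lower in Nic against Nic-free. With the replicate number as a block, 0 genes were lower in smoke against air (Snap25 lost, adjusted p = 0.136), 11 rose and 2 fell in Nic-free against Room-air (Snap25 lost, 0.0735), and 9 fell in Nic against Nic-free (Cplx1 and Tubb3 lost, 0.0642 and 0.0853). Under the same block 6 were higher in air against Room-air (Vamp2 and Syn1 lost, 0.0515 and 0.0554, and Syt7 gained) and 3 passed for the difference of effects (Snap25 lost, 0.0583). With all 19 libraries in 1 fit 9 rose in Nic-free against Room-air (Snap25, Vamp2 and Syn1 lost, 0.119, 0.0543 and 0.0556) and 10 fell in Nic against Nic-free (Cplx1 lost, 0.0751). Equal numbers do not pair the libraries by any label, and their deviations correlated at −0.39 to 0.251. Without TMM factors 39.4% of called genes were higher in Nic-free against Room-air (52.1% with them), 41.7% in Nic against Room-air (31.3%), 65.2% in Nic against Nic-free (49.9%) and 37.2% for the difference of effects (49.8%). Smoke and air libraries are the shallowest, and Sv2c and Syn3 had as few as 24 and 30 counts.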
